A study of Mus musculus with 20 samples.

Results

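This account describes 956 sites in the mouse genome where both Sox proteins that carry a lysine, Sox2 and Sox17EK, had a peak in embryonic stem (ES) cells and neither protein that carries a glutamate, Sox2KE or Sox17, had one. They are called lysine-only sites here and were selected on measured Sox peaks. The 5836 strongest peaks of each of the 8 Sox lists of ES cells were pooled, midpoints were chained while neighbours lay within 200 bp, and the median midpoint of a chain was taken as the site. This gave 23796 sites, the union. A library had a peak at a site where a midpoint of its whole list lay within 200 bp. The 956 sites had a peak in replicates A and B of Sox2 and of Sox17EK, and none in any library of Sox2KE or Sox17. The presence and absence of Sox peaks at them is therefore the selection itself and not a finding.

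Sox2 and Sox17 are HMG-box transcription factors that bend DNA and recognise nearly the same short motif. Their choice of sites depends largely on the partner that binds beside them. In pluripotent cells Sox2 pairs with the POU factor Oct4 (Pou5f1) on a composite element in which the Sox and the POU motif lie side by side. Sox17, a regulator of primitive endoderm, pairs with Oct4 best on a compressed form of that element. An amino acid of the HMG box at the contact with Oct4, a lysine in Sox2 and a glutamate in Sox17, has a large part in this preference. The mutants exchange it, so that Sox2KE is Sox2 with the glutamate and Sox17EK is Sox17 with the lysine.

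Chromatin was immunoprecipitated and sequenced (ChIP-seq), and 18 peak lists were analysed. KH2 is a mouse ES line with a doxycycline-inducible transgene. All its groups received doxycycline at 1 µg/ml and stayed in serum and LIF as undifferentiated cells, so induction was shared by every ES library, and ES cells also express their own untagged Sox2. The groups were ES cells overexpressing V5-tagged Sox2, Sox2KE, Sox17EK or Sox17, each with Sox libraries A and B. Sox2, Sox2KE and Sox17EK libraries name the V5 antibody, and the Sox17 libraries name the Sox17 and V5 antibodies. Oct4 libraries of the same lines, A and B for Sox2, Sox2KE and Sox17EK and A alone for Sox17, name the Oct4 and V5 antibodies. F9 embryonal carcinoma cells gave 1 Oct4 library untreated, and 1 Oct4 and 1 Sox17 library after 1 µM retinoic acid (RA), an agent that drives F9 cells towards primitive endoderm. The F9 libraries name the Oct4 or the Sox17 antibody alone. Lines of Sox2 and Sox17EK are called lysine lines, and those of Sox2KE and Sox17 glutamate lines. Whether replicates A and B were separate cultures is not stated, and p-values therefore speak of the scatter among these libraries, which may be technical. Residue, antibody and line cannot be told apart beyond the 4 proteins.

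The lists differed in length. Sox17 had 10301 and 5836 peaks, Sox2KE 33123 and 71693, Sox2 32226 and 23924, and Sox17EK 28601 and 36700. The Oct4 lists of ES lines had 32848 to 68294. A short list leaves fewer sites with a peak, so absence of Sox17 was easier to meet. Read depth was unknown, since only peak lists were used. The strength of a peak was read as the percentile of the authors' score within its list, where 100 is the strongest.

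How the sites came out of the selection is shown by the union sites with a peak in all 4 lysine lists. Of 4453 such sites, 956 had no glutamate list, 775 had 1, 1187 had 2, 877 had 3 and 658 had all 4. Among the 775, the single list was Sox2KE A at 248, Sox2KE B at 365, Sox17 A at 110 and Sox17 B at 52. At 813 sites both Sox2KE libraries joined the lysine proteins and Sox17 did not, while both Sox17 libraries joined them without Sox2KE at 59. Near the limit, 24 sites had their nearest glutamate midpoint at 180 to 200 bp and were left out, and 25 had it at just over 200 to 220 bp and were kept. The closest left out lay at 200 bp, 199.5 bp and 198 bp, and the closest kept at 201 bp, 202 bp and 203 bp. These values lie side by side, so the edge of the class is set by the limit and not by a gap in the data. Sites were sparse near the limit, however. The nearest glutamate midpoint lay within 50 bp at 2685 sites, at 150 to 200 bp at 65, and at just over 200 to 250 bp at 48.

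Sox17EK peaks at the lysine-only sites stood higher within their lists than Sox2 peaks. Median percentiles were 89.3 and 90.9 in Sox17EK A and B, and 74.6 and 62.8 in Sox2 A and B. The median scores were 330 and 174 for Sox17EK and 165 and 124 for Sox2, with ranges of 57.4 to 3100, 50.3 to 1969, 50.6 to 1603 and 50.4 to 1056. The mean percentile of Sox17EK exceeded that of Sox2 at 789 of 956 sites (82.5%), and the median excess was 20.0 percentile points. Of the sites, 81.3% and 69.6% were among the 5836 strongest peaks of Sox17EK A and B, against 34.2% and 32.5% for Sox2 A and B. All 4 lysine lists held 145 sites among their strongest, 3 lists 147, 2 lists 395 and a single list 269. All of these values come from the lists that chose the sites and are given as a description. Across sites, percentiles of the replicates moved together (Spearman's rho 0.66 for Sox2 and 0.59 for Sox17EK), while rho between the 2 proteins was 0.11 to 0.22 over the 956 sites, which share their libraries.

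**Figure D1:**
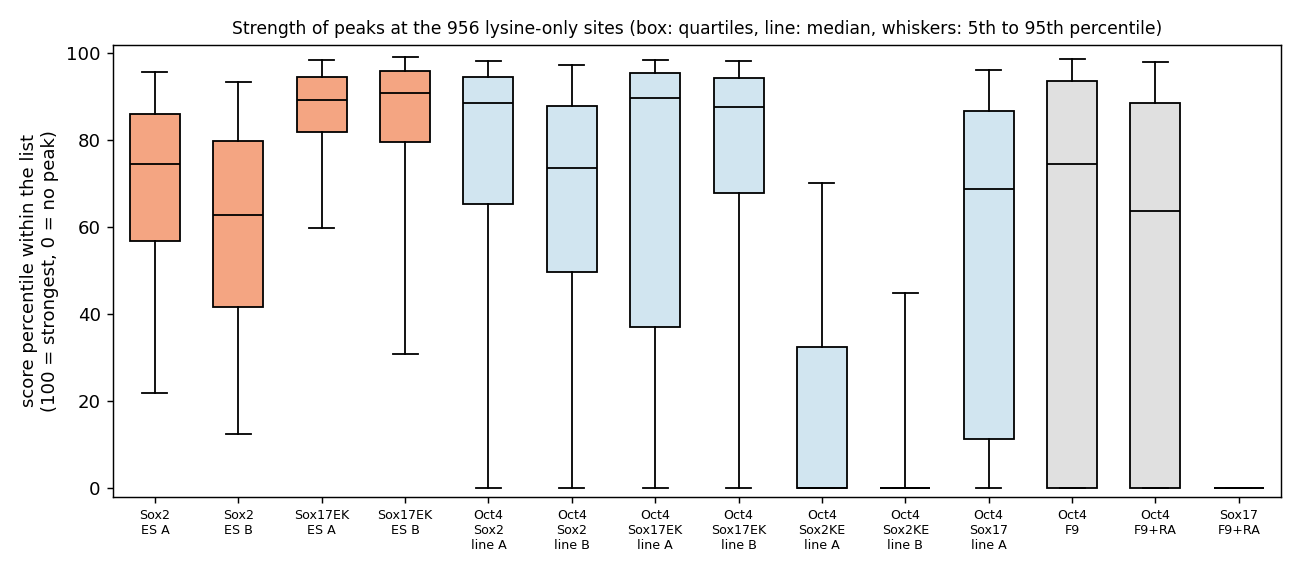
Score percentile within each list (vertical axis, 100 is the strongest peak and 0 means no peak) at the 956 lysine-only sites, for the Sox lists of the selection (orange), the Oct4 lists of ES lines (blue) and the F9 lists (grey). Boxes are quartiles, lines are medians, and whiskers run from the 5th to the 95th percentile of sites. The Oct4 boxes of the Sox2KE line lie lowest of the Oct4 lists, both with a median of 0.

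Glutamate peaks were not always far away. A midpoint of a glutamate list lay within 1000 bp of 196 sites (20.5%), and beyond 10 kb of 396 (41.4%). The median distance to the nearest peak was 7298.5 bp for Sox2KE and 47223 bp for Sox17. Taking the region of a site as the span of its 4 lysine peaks, an interval of a glutamate list overlapped it at 168 sites (17.6%), of Sox2KE at 149 and of Sox17 at 57. At the other 788 sites (82.4%) no glutamate interval touched the region, so that the absence did not rest on the position of a midpoint in a wide peak.

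**Figure D2:**
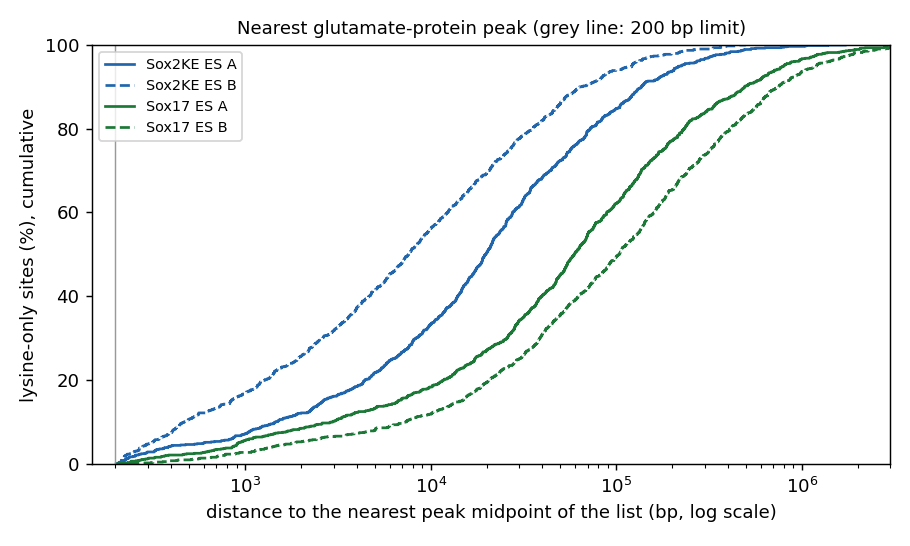
Cumulative share of the 956 lysine-only sites (vertical axis, %) by the distance to the nearest peak midpoint of each glutamate list (horizontal axis, bp, log scale). The grey line marks the 200 bp limit of the selection, and all curves start there. The Sox2KE B curve, from the list of 71693 peaks, lies furthest left, and 16.9% of sites had a midpoint of that list within 1000 bp.

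Oct4 lay at most lysine-only sites in every ES line except that of Sox2KE. In the Sox2 line it had a peak at 765 (80.0%) and 866 (90.6%) of the 956 sites in A and B, where the share over all union sites was 57.7% and 50.4%. In the Sox17EK line it was found at 722 (75.5%) and 817 (85.5%), against 50.6% and 48.5% of union sites. The Sox2KE line had Oct4 at 365 (38.2%) and 201 (21.0%), against 55.9% and 46.9% of union sites. The single library of the Sox17 line had it at 744 (77.8%), against 48.2%. The Sox2KE libraries were thus the lowest of the 7 and below their own union shares, whereas the Sox17 library lay within the range of the lysine lines. With lists moved by 10 kb, 1.05% to 2.41% of the sites had an Oct4 peak. Exact 95% counting intervals were 75.1% to 80.4% for the Sox17 line, and 35.1% to 41.3% and 18.5% to 23.7% for Sox2KE A and B. Such intervals cover counting error over sites and not the spread between cultures.

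**Figure D3:**
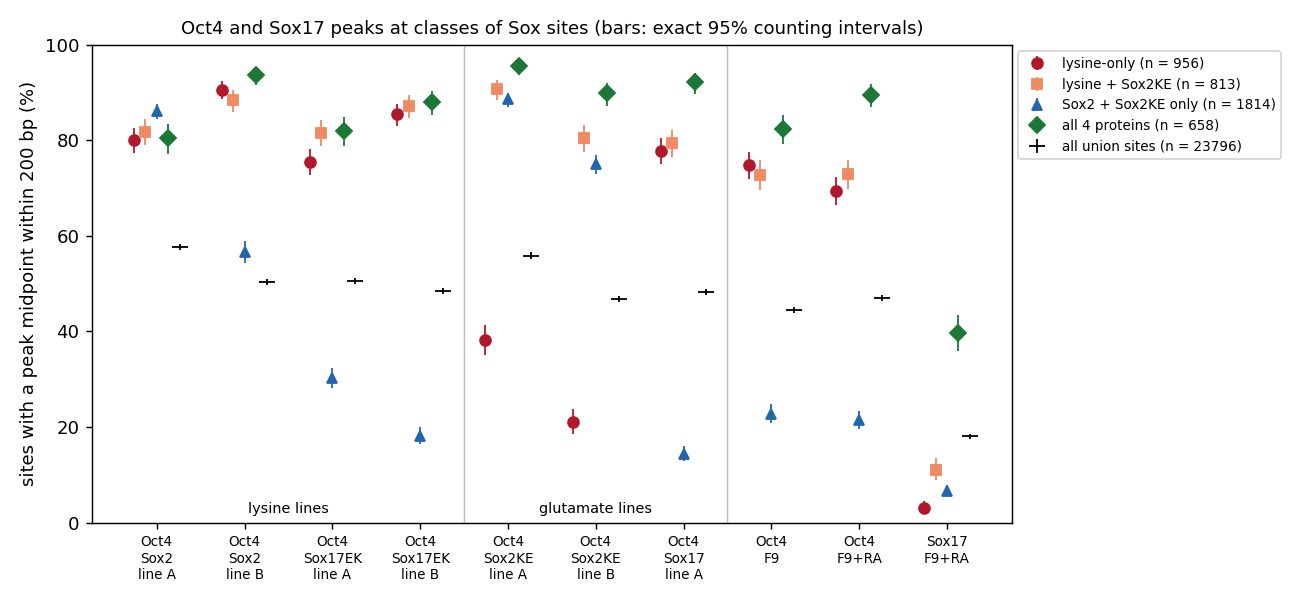
Share of sites with a peak midpoint within 200 bp (vertical axis, %) in each Oct4 library of ES lines and each F9 library (horizontal axis), for lysine-only sites and for comparison classes. Bars are exact 95% counting intervals. At lysine-only sites the Oct4 libraries of the Sox2KE line stand at 38.2% and 21.0%, and the other 5 Oct4 libraries of ES lines at 75.5% to 90.6%.

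Oct4 peaks were also weaker in the Sox2KE line where they were present. The median percentile of the Oct4 peaks found at lysine-only sites was 42.1 and 27.6 in Sox2KE A and B. For the Sox2 line it was 91.5 and 76.4, for the Sox17EK line 93.4 and 90.3, and for the Sox17 line 78.0. Sites among the 5836 strongest Oct4 peaks numbered 11 and 6 in the Sox2KE line, 293 in the Sox17 line, 406 and 345 in the Sox2 line, and 442 and 485 in the Sox17EK line. These percentiles and counts were computed for lysine-only sites alone, so no value over union sites stands beside them. The distance from a site to the matched Oct4 midpoint had medians of 39.75 to 51.5 bp over the 7 lists. A match required a midpoint within 200 bp, so these distances were bounded by the rule. Oct4 peaks that covered a site but were centred further away did not enter them.

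The planned comparison set the 4 Oct4 libraries of lysine lines against the 3 of glutamate lines. The mean share was 82.9% ± 6.54 (SD, n = 4) against 45.7% ± 29.1 (SD, n = 3), a difference of 37.2 percentage points (exact two-sided permutation p = 0.114, adjusted p = 0.152 by the Benjamini-Hochberg method over 4 planned tests). The groups overlapped, since the Sox17 library was above 1 of the 4 lysine libraries. The smallest p that 4 against 3 libraries can give is 0.0571, so no test of this design could pass 0.05. Median percentiles with 0 for no peak were 84.9 ± 7.64 in the lysine libraries (88.6, 73.5, 89.8 and 87.7) and 22.9 ± 39.7 in the glutamate libraries (0, 0 and 68.7). That difference of 62.0 points had no overlap between groups and reached the smallest p (exact permutation p = 0.0571, adjusted p = 0.114). The sites were chosen by tagged Sox peaks of these same lines, and the Oct4 libraries also name V5. The direction is therefore not independent of the selection, in this and in every comparison of lines at lysine-only sites. The SD of the glutamate libraries was the gap between the Sox17 and the Sox2KE line. Without Sox2KE line B the difference in share was 24.9 points, and without the Sox17 library it was 53.3.

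Whether the residue had the same difference in both Sox backgrounds was tested after the data were seen. Sox2 minus Sox2KE lines differed by 55.7 points and Sox17EK minus Sox17 lines by 2.67 points. The 53.0 points between these differences were not past the threshold (exact permutation p = 0.222, smallest possible 0.111, adjusted p = 0.229 over 2 added tests), with 1 library in the Sox17 line. The 2.67 points rested on single libraries and on the matching. They became 7.64 without Sox17EK line A, -2.30 without Sox17EK line B and 13.8 by covering Oct4 intervals, by which the Sox2 pair differed by 63.1 points and the pairs by 49.3 (exact permutation p = 0.333).

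Other site classes serve to show where the lysine-only sites stood apart. At the 813 sites that the lysine proteins shared with Sox2KE, Oct4 of the Sox2KE line lay at 90.7% and 80.4%, and the other lines were close to their values at lysine-only sites, with 81.8% and 88.3% for Sox2, 81.5% and 87.2% for Sox17EK and 79.5% for Sox17. The excess of the lysine over the glutamate lines in lysine-only minus shared sites was 36.0 points (-1.82 ± 3.39 against -37.8 ± 31.5, SD, n = 4 and 3, exact permutation p = 0.229, adjusted p = 0.229 over 2 added tests). In the Sox2KE line the 2 classes thus differed by -52.5 and -59.4 points, and in the other 5 libraries by -6.03 to 2.27 points. At the 59 sites shared with Sox17 and not Sox2KE, Oct4 of the Sox2KE line lay at 49.2% and 37.3%. Each class was chosen by the Sox peaks of these lines, and an Oct4 share that follows the Sox peak of its own line cannot be told apart from that choice.

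At the 658 sites of all 4 proteins, Oct4 lay at 80.4% to 93.6% in lysine lines and at 89.8% to 95.6% in glutamate lines. The planned contrast with these sites was -3.08 ± 2.49 points in lysine lines and -46.8 ± 28.8 in glutamate lines (SD, n = 4 and 3). No glutamate library reached the range of the lysine libraries. The difference was 43.7 points, with the smallest p the design allows (exact two-sided permutation p = 0.0571, adjusted p = 0.114). Its direction, too, is not independent of the selection by Sox peaks of these lines. Here the Sox17 library was also below all lysine libraries, with -14.3 points.

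The 1814 sites of the Sox2 forms, which lack both Sox17 forms, had another Oct4 pattern. There Oct4 lay at 56.7% to 88.5% in the libraries of the Sox2 and Sox2KE lines. It lay at 30.2% and 18.1% in the Sox17EK line and at 14.4% for Sox17. Lysine-only sites exceeded them by 35.1 ± 30.7 points in lysine lines and by -13.6 ± 66.7 in glutamate lines, a difference of 48.8 that was not past the threshold (exact permutation p = 0.229, adjusted p = 0.229). It was 28.6 points without Sox2KE line B, 30.4 without Sox2KE line A and 87.3 without the Sox17 library.

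By Oct4 intervals the Sox2KE libraries were again the lowest of the 7, while the other lines changed places. An Oct4 interval covered all 956 lysine-only sites in Sox2 line A (union 84.8%) and in Sox17EK line A (union 75.9%), with a lower 95% limit of 99.6% for each. Sox17EK line B covered 952 sites (99.6%, union 67.5%) and Sox2 line B 896 (93.7%, union 62.3%). The Sox17 line covered 822 (86.0%, union 64.1%), below all 4 lysine libraries, whereas by midpoint it lay within their range. In the Sox2KE line A covered 405 (42.4%, union 73.3%) and B 241 (25.2%, union 62.9%), while it covered 96.2% and 83.4% of the sites that the lysine proteins shared with Sox2KE. The midpoint rule thus missed sites inside wide Oct4 peaks, most of all in the A libraries of the lysine lines.

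The ES labels name V5 beside Oct4, so a peak of the tagged Sox protein in an Oct4 list cannot be told apart from one of Oct4, and the sites were chosen by V5 peaks of 2 of these lines. Oct4 intervals of Sox2 line A covered 81.9% of the peaks of the whole Sox2 A list, and those of Sox17EK line A covered 87.4% of the whole Sox17EK A list. Such cover was not particular to the tagged protein of the line. The same 2 Oct4 lists covered 85.5% and 86.1% of the Sox17 A list, and 68.2% and 55.7% of the Sox2KE A list. In the B libraries, Sox2 line B covered 62.9% of the Sox2 B list and Sox17EK line B 39.1% of the Sox17EK B list. The Sox17 line had Oct4 at 77.8%. By the selection it had no tagged Sox17 midpoint within 200 bp of these sites, but a Sox17 interval overlapped the region at 57. F9 cells, whose libraries name no V5 antibody, had Oct4 at 74.8%. The part of the tagged proteins in the ES values was not tested.

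Counting the 7 Oct4 libraries of ES lines at each site, 5 was the most frequent number. It was found at 346 lysine-only sites, and 6 at 165, 4 at 211, 3 at 92, 2 at 34 and 1 at 26. All 7 had Oct4 by midpoint at 78 sites (8.16%, against 13.6% of union sites and 45.6% of the 813 sites shared with Sox2KE). Intervals of all 7 lists overlapped the region at 207 lysine-only sites, with no union share computed. None of the 7 had Oct4 by midpoint at 4 sites (0.418%, against 13% of union sites), and at these 4 the intervals of all 7 lists overlapped the region. No lysine-only site was without an Oct4 interval in every ES list.

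**Figure D4:**
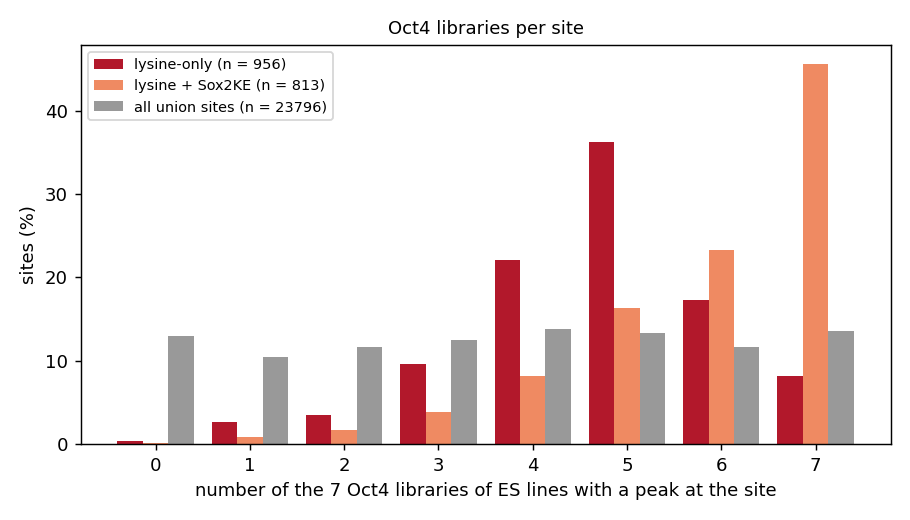
Share of sites (vertical axis, %) by the number of the 7 Oct4 libraries of ES lines with a peak midpoint within 200 bp (horizontal axis), for lysine-only sites, sites shared with Sox2KE and all union sites. Lysine-only sites are most frequent at 5 libraries (346 of 956), sites shared with Sox2KE at 7 (371 of 813).

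The most frequent gap was the Sox2KE line. Neither of its Oct4 libraries had a peak at 549 lysine-only sites (57.4%, against 37.2% of union sites and 5.54% of sites shared with Sox2KE), 1 had it at 248 (25.9%, against 22.8% of union sites) and both at 159 (16.6%, against 40%). Neither a midpoint nor an interval of that line was present at 508 sites (53.1%, with no union share computed). All 5 other ES libraries had Oct4 and the Sox2KE line none at 267 sites (27.9%, against 3.4% of union sites). Oct4 in all 4 lysine libraries and in no glutamate line was found at 75 sites (7.85%, against 1.17%).

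Among lysine-only sites, Oct4 of the Sox2KE line went with the nearness of Sox2KE peaks. It was present in A and B at 53.7% and 40.9% of the 149 sites whose region a Sox2KE interval overlapped, at 43.3% and 22.0% of the 395 others with a Sox2KE midpoint within 10 kb, and at 27.7% and 12.9% of the 412 with none within 10 kb. By covering Oct4 intervals these shares were 81.2% and 66.4%, 43.3% and 22.5%, and 27.4% and 12.9%, in the same order. For the Sox17 line and Sox17 peaks the order depended on how Oct4 was matched. Oct4 midpoints lay at 49.1% of the 57 sites with an overlapping Sox17 interval, 77.0% of the 152 others within 10 kb and 80.2% of the 747 beyond, and Oct4 intervals covered 94.7%, 89.5% and 84.6%. By midpoint, the strength of the lysine peaks went with the Oct4 share in some libraries and not in others. With the sites split by mean rank into 319 strongest, 318 middle and 319 weakest, Oct4 lay at 46.4%, 37.4% and 30.7% in Sox2KE line A, at 29.8%, 17.6% and 15.7% in B, and at 84.0%, 80.2% and 69.3% for Sox17. In Sox2 line B the share was highest in the strongest sites, with 92.1% in the middle and 84.6% in the weakest, while Sox2 line A had the other order, with 76.2%, 78.6% and 85.3%. Sox17EK line A had 68.0%, 80.2% and 78.4%, and B 85.9%, 84.3% and 86.2%. Oct4 intervals covered all 956 sites in Sox2 line A and in Sox17EK line A. The order in these libraries therefore holds for midpoints alone. No test was run over sites, which share their libraries.

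F9 cells carried Oct4 at most lysine-only sites as well. The untreated cells had it at 715 (74.8%, against 44.5% of union sites) and RA-treated cells at 664 (69.5%, against 47%). Both libraries had it at 553 sites (57.8%, against 32.9% of union sites), untreated cells alone at 162 (16.9%, against 11.5%), treated cells alone at 111 (11.6%, against 14%) and neither at 130 (13.6%, against 41.5%). These counts are by midpoint. Oct4 intervals covered 851 sites in untreated cells (89.0%, union 65.5%) and 713 in treated cells (74.6%, union 61.6%). Sites counted without Oct4 in untreated F9 cells thus included some inside an F9 interval, and these groups were not counted by intervals. All 9 Oct4 lists had a peak at 67 sites (7.01%, against 10.7% of union sites and 34.2% of sites shared with Sox2KE). The sites shared with Sox2KE had nearly the same values, 72.8% and 72.9%, and those of the Sox2 forms alone had 22.8% and 21.4%. With 1 library for each state there is no replicate check, and these values compare libraries.

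Within the class, the Oct4 F9+RA share was higher where the Sox2KE line had Oct4. It was 57.4% at the 549 sites where no library of that line had Oct4, 83.9% at the 248 with 1 and 88.7% at the 159 with both. The untreated F9 library showed less of this order, with 73.6%, 74.2% and 79.9%. Sites without Oct4 in the Sox2KE line were therefore also those with the lower share after RA. This was not particular to RA. The Sox17 line rose likewise, with 73.6%, 81.5% and 86.8%, and Sox2 line B with 86.7%, 94.4% and 98.1%. Sox2 line A fell, with 83.2%, 77.4% and 73.0%. Sox17EK lines A and B were highest at the sites without Oct4 in the Sox2KE line, at 80.1% and 87.6%. All these shares are by midpoint. Oct4 intervals covered all 956 sites in Sox2 line A and Sox17EK line A, and 952 in Sox17EK line B. The order in these libraries therefore holds for midpoints alone. Their median Oct4 percentiles, with 0 for no peak, rose instead. They were 86.7, 90.3 and 91.5 in Sox2 line A, and 88.8, 90.7 and 93.6 in Sox17EK line A. Sox17EK line B had 86.2, 88.8 and 91.5. The same division was not made over union sites. This division uses measured Oct4 peaks and is a description.

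Endogenous Sox17 of F9+RA cells lay at few lysine-only sites. A Sox17 peak was present at 30 of 956 (3.14%, exact 95% interval 2.13% to 4.45%), against 18% of union sites. The list moved by 10 kb met 0.837%. The share was 6.62% (120 of 1814) at sites of the Sox2 forms, which also lacked Sox17 in ES cells by their choice. It was 11.1% at sites the lysine proteins shared with Sox2KE, 15.3% at those shared with Sox17 and 39.7% at those of all 4 proteins. Where present, these peaks were of middling strength for their list, with scores of 51.5 to 274, a median of 70.4 against 67.8 over the list, a median percentile of 53.7 and 3 of the 30 among its 5836 strongest. Their median distance from the site was 119 bp. Of the 30, 18 had Oct4 in F9+RA cells, 18 in untreated F9 cells and 19 in the Sox17 line. The region of 69 sites (7.22%) was touched by a Sox17 F9+RA interval. Such an interval covered the site itself at 3.14% of the 956, against 23.1% of union sites. Sites with Sox17 in ES cells had been left out, and the part of that choice in the low share was not tested.

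Single regions illustrate these groups. Positions are in build mm9, give the span of the 4 lysine peaks, counted from 1, and were chosen by mean rank in the lysine lists. Scores are the authors' own for the peaks that overlap the region. Since scores of different lists are not comparable in size, the presence and order within a list matter.

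The strongest region by mean rank was chr14:64118745-64120246. Sox2 peaks scored 1603 and 1029 there and Sox17EK peaks 1792 and 760. Intervals of all 4 glutamate lists also overlapped it, with scores of 712 and 2157 for Sox2KE and 448 and 207 for Sox17, and their midpoints lay 202 to 857 bp from the site. All 9 Oct4 lists had an overlapping interval. This region is on the list by the position of midpoints in wide peaks.

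The region chr14:67381045-67382119 was the strongest without a glutamate interval. Its Sox2 scores were 1324 and 1056, its Sox17EK scores 831 and 841, and the nearest glutamate midpoint lay 29147 bp away. Oct4 scored 3100 and 2406 with Sox2, 1986 and 1337 with Sox17EK, 1333 with Sox17 and 132 in F9 cells. No Oct4 interval of the Sox2KE line or of F9+RA cells overlapped it.

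Other strong regions without a glutamate interval differed in their F9 values. At chr11:101543140-101543880, with Sox2 scores of 664 and 1029 and Sox17EK scores of 1906 and 1350, Oct4 scored 2770 in F9 and 1269 in F9+RA cells and 168 in the Sox17 line, with none in the Sox2KE line. At chr8:12698369-12699584, Oct4 scored 3100 and 836 with Sox2, 3100 and 2455 with Sox17EK, 179 with Sox17 and 124 in F9 cells, and no interval was present in the Sox2KE line or F9+RA cells. At chr3:61050185-61051061, Oct4 scored 407 in F9 and 58.1 in F9+RA cells and 329 in the Sox17 line, again with none in the Sox2KE line. The region chr7:35583218-35584660 had the same Oct4 gap and an overlapping Sox2KE A interval with a score of 76.1.

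At further strong regions the Sox2KE line had an Oct4 peak that stood low within its list. At chr15:96028087-96029150 all 9 Oct4 lists had a peak, at percentiles of 45.6 and 48.3 in the Sox2KE line (scores 108 and 123), 99.9 and 96.2 with Sox2, 99.3 and 98.3 with Sox17EK and 97.9 with Sox17. At chr8:95266517-95267670, Oct4 stood at percentile 38.6 in Sox2KE line A (score 92.3), with no interval in B. At chr2:119682901-119683755 it stood at 9.17 in B (score 56.3), with none in A. At chr6:34293911-34295276 it stood at 23.2 in A (score 68.8) with none in B, and an interval of Sox17 A with a score of 113 overlapped.

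Oct4 in all 9 lists was also found at chr6:128415715-128416501, chr3:88379301-88379971, chr5:111599302-111599999 and chr1:153024183-153025262. Their Oct4 scores in the Sox2KE line were 126 and 69.5, 152 and 73.3, 177 and 105, and 340 and 190, in this order. At the chromosome 5 region the F9 score was 3100 and the F9+RA score 1785, and a Sox17 F9+RA peak scored 68.6. That region was the strongest lysine-only site with endogenous Sox17.

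Oct4 peaks in the lysine lines and in no glutamate line were found further down the ranking. At chr1:19096822-19098011, Sox2 scored 659 and 413 and Sox17EK 663 and 263. Oct4 scored 2880 and 629 in the Sox2 line and 2508 and 1076 in the Sox17EK line, and no glutamate line or F9 library had an Oct4 interval. At chr1:44624811-44625680 the pattern was the same, with Oct4 scores of 1228, 285, 1175 and 585 in the 4 lysine libraries and 73.0 in F9 cells. The regions chr6:127032965-127033617 and chr10:61976841-61977596 had Oct4 in both F9 states in addition. At chr13:16921975-16922724 a Sox17 line interval with a score of 532 overlapped, so this region belongs to the group by midpoints alone.

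On the X chromosome lay 32 lysine-only sites (3.35%), against 1.12% of union sites. The share was also above that of the union at sites shared with Sox2KE (2.58%, 21 of 813) and at those of the Sox2 forms (1.65%), and it was 1.06% at sites of all 4 proteins. Of the sites in the union, 12.0% of those on X were lysine-only, against 3.93% of the autosomal ones. Among sites with all 4 lysine lists the share without any glutamate list was 32 of 86 on X (37.2%) and 924 of 4367 on autosomes (21.2%). In the Sox lists that chose the sites, X held 1.41% to 1.85% of the 5836 strongest peaks in lysine lists and 0.480% to 0.840% in glutamate lists. Over whole Sox lists, which decide absence, the ranges overlapped, at 0.804% to 1.88% and 0.531% to 1.53%.

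Oct4 lists of the lines, which the selection did not use, also differed in the X share of their strongest peaks. These comparisons were outside the planned tests, and their adjustment does not cover the choice of X among the chromosomes. The Oct4 libraries come from the same lines as the Sox lists and name V5, so they are no independent check. X held 1.47% ± 0.352 of the 5836 strongest Oct4 peaks in lysine lines (0.960% to 1.71%, SD, n = 4) and 0.560% ± 0.334 in glutamate lines (0.326% to 0.942%, SD, n = 3). The groups did not overlap, and the p was the smallest the design allows (exact two-sided permutation p = 0.0571, adjusted p = 0.114 over 2 comparisons). Over whole lists the shares were 1.76% ± 0.379 and 1.35% ± 0.128 (exact permutation p = 0.171, adjusted p = 0.171). At the 32 sites on X, Oct4 of the Sox2KE line lay at 13 (40.6%) and 2 (6.25%), and of the other ES libraries at 27 to 31. Few sites lay close together, with 3 neighbouring pairs within 1 kb, 22 within 10 kb and 85 within 100 kb.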

How the data were processed

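Each deposited list holds chromosome, start, end, peak name and a number, with no header. Names start with the MACS prefix. The number, called the score in the text, was deposited by the authors and read as 10 times −log10 of a p-value because the lowest value of each list is 50 to 50.03. No label states this scale. Build mm9 is per the submitters' processing notes. No aligner, caller setting or control library is named in the sources used here. Lists of 18 of the 20 samples were used, and the mock libraries (2) were not analysed.

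The sites, matching and classes are defined in the report. Differences of means between sets of libraries were given exact two-sided permutation p-values, with Benjamini-Hochberg adjustment over 4 planned and, separately, 2 added tests. The 2 comparisons of X shares in Oct4 lists were in neither set and were adjusted on their own. Counting intervals are Clopper-Pearson (95%). Counts were checked on simulated lists. Named regions were the 10 strongest by mean rank in the 4 lysine lists and the 5 strongest of set Oct4 and Sox17 patterns, from which the text takes some. The sites and the tests were chosen with earlier results of these data known. Gene lists and a motif search were planned and not run, since the gene and promoter tables used here are of build GRCm38, so positions stand in place of gene names and sequences. The tools were SciPy 1.17.1, NumPy 2.4.6, pandas 2.3.3 and matplotlib 3.10.9 in Python 3.11.15.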

Additional observations from a re-analysis of the deposited data

Results flagged for a closer look

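Among the 4 Oct4 libraries of lysine lines, the median score percentile at lysine-only sites was 73.5 in Sox2 line B and 87.7 to 89.8 in the others. The gap of the Sox2 line B value to its neighbour was 0.872 of the whole range, which is above Dixon's 95% critical value for a group of 4. Chance flags about 1 in 20 groups. Sox2 line B also had the shortest list of the 4, with 32877 peaks, and the highest share of lysine-only sites with a midpoint match, 90.6%. The part of list length in this value was not tested.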

How the results depend on the processing

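The 4 planned comparisons kept their direction and stayed above 0.05 under every alternative run. The difference in Oct4 share was 24.9 to 53.3 points over 24 alternatives (exact permutation p 0.0571 to 0.267), that against sites of the Sox2 forms 28.6 to 87.3, that against sites of all 4 proteins 32.8 to 60.0 and that in strength 50.6 to 84.9 (21 alternatives each). The added difference between the pairs of lines was 49.3 points by covering intervals and 44.5 to 61.6 with 1 library left out. None of these designs can pass 0.05, so this says nothing of stability. With the replicate letter as a block the differences were 43.4 (exact permutation p = 0.222), 58.8 (p = 0.333), 49.2 (p = 0.111) and 67.7 points (p = 0.111, the smallest possible), and no call changed. Deviations of same-lettered Oct4 libraries correlated at 0.042, 0.116 and -0.003 between lines, so the letters were not taken to pair libraries.

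The number of lysine-only sites was 470 where the 5836 strongest peaks alone counted as bound and, in an alternative added after the data were seen, 2345 without the Sox2KE libraries in the rule. Leaving out 1 library at a time gave 872 to 1320. It was 797 and 950 with 100 and 500 bp, 895 with intervals that cover the site, 786 with scores of at least 100, and 1172 without the Sox17 libraries (added). The Oct4 F9 share was 59.0% with 100 bp, 84.7% with 500 bp, 88.7% by covering intervals, 70.4% with scores of at least 100 and 79.2% at sites without a glutamate interval (added), with 69.8% to 75.6% when 1 library was left out. The Oct4 F9+RA share was 59.7%, 73.7%, 72.8% and 63.0% under the first 4 of these, 80.9% at the 470 sites, and 65.9% to 71.1% with 1 library left out. The Sox17 F9+RA share was 2.12% by covering intervals, 1.65% with scores of at least 100, 4.47% at the 470 sites, 1.78% without a glutamate interval, and 3.07% to 4.59% with 1 library left out. The cause of these shifts was not tested.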
